A study of Mus musculus with 12 samples.

Results

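The nuclear-encoded genes of the mitochondrial respiratory chain were described in the paraventricular nucleus (PVN) of adult mice that had been injected as zygotes with microRNA mimics or with vehicle. Members were all genes whose symbol begins as the subunit families of complexes I to IV and of ATP synthase do (Nduf, Sdh, Uqcr, Cyc1, Cycs, Cox4 to Cox8, Atp5). Of 23260 genes in the table, 87 were members. A mean of at least 1 RPKM (reads per kilobase of transcript, scaled to the size of the library) over the 12 libraries was required for testing, and 82 members were among the 13273 genes that met it. The 82 tested members were 7 core and 30 accessory genes of complex I, 4 genes of complex II, 9 of complex III, the gene of somatic cytochrome c, 14 of complex IV, 14 of ATP synthase, and 3 genes whose symbols match although they encode no subunit. Apart from these 3 genes, complexes were assigned by symbol. Ndufa4 and its paralog Ndufa4l2 are thus counted among the accessory genes of complex I. The 5 members under the filter were Cox8b with a mean of 0.0368 RPKM, Cox8c with 0.599, Atp5g2 with 0.766, Cox7b2 with 0.959 and Cox4i2 with 0.973.

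The respiratory chain is a set of protein complexes in the inner mitochondrial membrane. Complexes I and II pass electrons from NADH and succinate to ubiquinone, complex III passes them to cytochrome c, and complex IV passes them to oxygen. Complexes I, III and IV pump protons, and ATP synthase uses the return flow of protons to make ATP, on which neurons with their ion pumps and synapses depend heavily. Most subunits are encoded in the nucleus, made in the cytosol and imported, while a few hydrophobic core subunits are encoded by mitochondrial DNA. Genes of mitochondrial DNA are not analysed here.

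The zygotes were C57/Bl6:129S6/SvEvTac hybrids, and all animals, controls included, had been microinjected and carried by CD1 surrogate dams. The miR group received 9 miRIDIAN mimics (miR-375, miR-29c, miR-698, miR-30c, miR-204, miR-30a, miR-532-3p, miR-32 and miR-193-5p) at 0.11 ng/uL each and 1 ng/uL in total. The PBS group received the phosphate-buffered saline vehicle. Males aged 18 to 20 weeks gave 6 libraries per group, named here miR 1 to miR 6 and PBS 7 to PBS 12. The tissue was a needle punch that also holds the cells around the nucleus. It was a mixture of cell types, so fewer cells of a type and less RNA per cell cannot be told apart. The series calls the animals biological replicates but does not state their litters, and p-values measure only the spread between these samples.

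Libraries held from 22.8 to 45.1 M reads, with a mean of 30.2 ± 8.46 (SD, n = 6) in miR and 31.99 ± 3.56 (SD, n = 6) in PBS. Taking for each tested member its median over libraries, the middle member rested on 2049 reads, and 6 members rested on fewer than 100 reads. Neuron markers were present, with 11 of 12 listed genes tested and summed levels of 1746 to 2008 RPKM in miR and 1769 to 2042 in PBS. The 10 PVN markers summed to 2743 to 6227 RPKM in miR and 3002 to 6638 in PBS. Of 8 muscle markers, 7 had a mean under 1 RPKM and Acta1, the skeletal muscle actin, was the one above it. One control library, PBS 9, stood apart in the respiratory chain genes, so results that rest on it are given with and without it.

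Promoters were available for 70 of the 87 members, as 250 bases before and 50 bases after the annotated start in RefSeq GRCm38.p6. Where RefSeq lists several starts, the first listed was taken. They were searched on both strands for the site of NRF1, a factor known for binding many respiratory chain promoters, spelled GCGC, any base, then TGCGC. This motif stood in 16 of 70 member promoters (22.9%), against 10.4% of the promoters of tested genes and 4.78% of all 27025 promoters. The ETS family core CCGGAAG stood in 15 (21.4%, against 17.6% of tested genes and 9.12% of all). The YY1 core AANATGGCG stood in 9 (12.9%, against 5.16% and 2.51%). The motif TCAAGGTCA of the oestrogen-related receptors stood in 2 (2.86%, against 0.29% and 0.41%), and the TATA box TATAAA in 7 of 70, where it stood in 6.69% of tested genes and 14.2% of all. A match describes letters in the window and shows no binding. By complex, NRF1 matches were in 7 of 27 accessory and 0 of 5 core genes of complex I, 2 of 3 of complex II, 1 of 5 of complex III, 1 of 13 of complex IV and 5 of 14 of ATP synthase. One promoter per complex with an NRF1 match is shown because it lets the matches be compared across complexes, with the matches to the NRF1 and ETS motifs in capitals. The windows are Ndufa8 at chr2:36049289-36049588 (minus strand), Sdha at chr13:74350191-74350490 (minus), Uqcrc1 at chr9:108936398-108936697 (plus), Cox6a1 at chr5:115348909-115349208 (minus) and Atp5g3 at chr2:73911277-73911576 (minus), all GRCm38.p6.
Ndufa8: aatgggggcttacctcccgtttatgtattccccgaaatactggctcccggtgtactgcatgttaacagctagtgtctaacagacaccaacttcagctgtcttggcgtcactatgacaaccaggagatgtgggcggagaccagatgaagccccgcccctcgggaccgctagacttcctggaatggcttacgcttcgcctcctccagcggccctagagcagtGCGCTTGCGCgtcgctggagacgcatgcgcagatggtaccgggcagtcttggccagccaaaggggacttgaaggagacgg
Sdha: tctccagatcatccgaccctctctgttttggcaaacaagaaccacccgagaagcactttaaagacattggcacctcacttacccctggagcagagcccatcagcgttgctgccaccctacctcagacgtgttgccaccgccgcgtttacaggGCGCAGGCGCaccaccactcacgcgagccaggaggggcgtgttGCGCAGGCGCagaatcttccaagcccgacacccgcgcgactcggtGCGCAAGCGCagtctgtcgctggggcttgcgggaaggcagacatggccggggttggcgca
Uqcrc1: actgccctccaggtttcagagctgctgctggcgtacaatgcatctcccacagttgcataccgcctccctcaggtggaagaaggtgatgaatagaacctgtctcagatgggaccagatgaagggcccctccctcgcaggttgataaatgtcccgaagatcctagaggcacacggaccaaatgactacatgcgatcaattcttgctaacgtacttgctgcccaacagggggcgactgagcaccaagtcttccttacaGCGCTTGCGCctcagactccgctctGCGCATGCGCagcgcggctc
Cox6a1: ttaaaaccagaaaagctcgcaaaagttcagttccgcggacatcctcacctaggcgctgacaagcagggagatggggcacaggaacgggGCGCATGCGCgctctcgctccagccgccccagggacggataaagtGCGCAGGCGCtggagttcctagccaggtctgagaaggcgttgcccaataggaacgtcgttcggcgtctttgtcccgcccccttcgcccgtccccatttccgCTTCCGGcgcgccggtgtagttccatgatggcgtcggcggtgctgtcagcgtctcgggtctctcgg
Atp5g3: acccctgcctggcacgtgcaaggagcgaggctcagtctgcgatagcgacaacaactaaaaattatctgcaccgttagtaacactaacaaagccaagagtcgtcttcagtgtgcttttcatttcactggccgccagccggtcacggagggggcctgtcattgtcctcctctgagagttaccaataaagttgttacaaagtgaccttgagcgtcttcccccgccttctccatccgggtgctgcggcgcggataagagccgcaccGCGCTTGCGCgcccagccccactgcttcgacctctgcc
With the first base of the annotated transcript counted as position 1 and the base before it as -1, the NRF1 match of Ndufa8 began at -30. Sdha held 3 NRF1 matches, beginning at -98, -55 and -10. Those of Uqcrc1 began at 6 and 31, that of Atp5g3 at 13, and those of Cox6a1 at -162 and -117, with its ETS match at -16. The genes with these promoters differed in level: Sdha, the catalytic flavoprotein of complex II, had a mean of 165 RPKM over 12 libraries, and Ndufa8, an accessory subunit of complex I, had 105.

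Most members were abundant. The median member mean was 82.04 RPKM, against 9.09 RPKM over all tested genes. The highest levels were those of Atp5b, the catalytic beta subunit of ATP synthase, at 455 RPKM, and of Cox4i1, the ubiquitous form of complex IV subunit 4, at 409 RPKM. They were followed by Atp5a1, the alpha subunit of ATP synthase, at 319 RPKM and Ndufa4 at 272 RPKM. Ndufa4 is named as a complex I gene but its protein is now regarded as a subunit of complex IV. Median levels per class were 75.1 RPKM for the complex I core, 78.3 for its accessory subunits, 81.8 for complex II, 105 for complex III, 84.4 for complex IV and 110.3 for ATP synthase. The ranges within each class were wider than the differences between class medians: from 1.92 (Atp5l) to 455 RPKM (Atp5b) in ATP synthase and from 1.98 (Cox6a2) to 409 RPKM (Cox4i1) in complex IV.

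Within complex I, the nuclear-encoded core subunits carry the flavin and the iron-sulphur clusters, and the accessory subunits surround them. Below Ndufa4, the accessory genes of highest mean level were Ndufb8 at 158 RPKM, Ndufa3 at 148 and Ndufb9 at 127, and those of lowest level were Ndufa4l2 at 1.36, Ndufb4 at 6.96 and Ndufs5 at 14.3. Among the core genes, Ndufs3 lay well below the other 6, with 12.7 RPKM against 50.2 for the next, Ndufs1, and 64.2% of its windows were unique. In complex II the flavoprotein gene Sdha, at 165 RPKM, was above the iron-sulphur subunit gene Sdhb, at 98.3, and the anchors Sdhc and Sdhd, at 65.3 and 59.4, while the complex is known to hold each protein in equal number. In ATP synthase the catalytic head genes Atp5b and Atp5a1 were the highest, the gamma and delta subunit genes Atp5c1 and Atp5d were at 118 and 114 RPKM, and the stalk genes Atp5f1, Atp5h and Atp5o were at 82.5, 78.2 and 85.2. In complex III, Uqcrh at 225 RPKM was the highest, and the iron-sulphur protein gene Uqcrfs1 (64.95) and Uqcrb (61.00) were the lowest.

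Some members with low values share sequence with other loci. A member was scored by the share of its 50-base windows found in no transcript of another locus. The 10 tested members with under 75% of such windows had a median of 13.5 RPKM (range 1.92 to 78.2), the 14 members from 75% to under 95% had 75.8, and the 58 members with 95% or more had 95.01. Atp5l, the g subunit of ATP synthase, was 31.5% unique and had a mean of 1.92 RPKM. Cycs, somatic cytochrome c, was 71.5% unique and had 2.03 RPKM, and Cox7c, a small complex IV subunit, was 47.0% unique and had 4.45 RPKM. Ndufs3, Ndufb4, Ndufs5 and Uqcrb, named above for their low levels, were 64.2%, 63.0%, 58.8% and 56.8% unique. How reads with several matches were counted is not given in the sources used here, so the levels of these genes are uncertain. Of the tested members, 18 (21.95%) were under 90% unique, against 6.38% of tested genes. Members were also short, with a median transcript of 786 bases against 2865 over tested genes, and 52 of 82 (63.4%) were under 1000 bases.

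**Figure D1:**
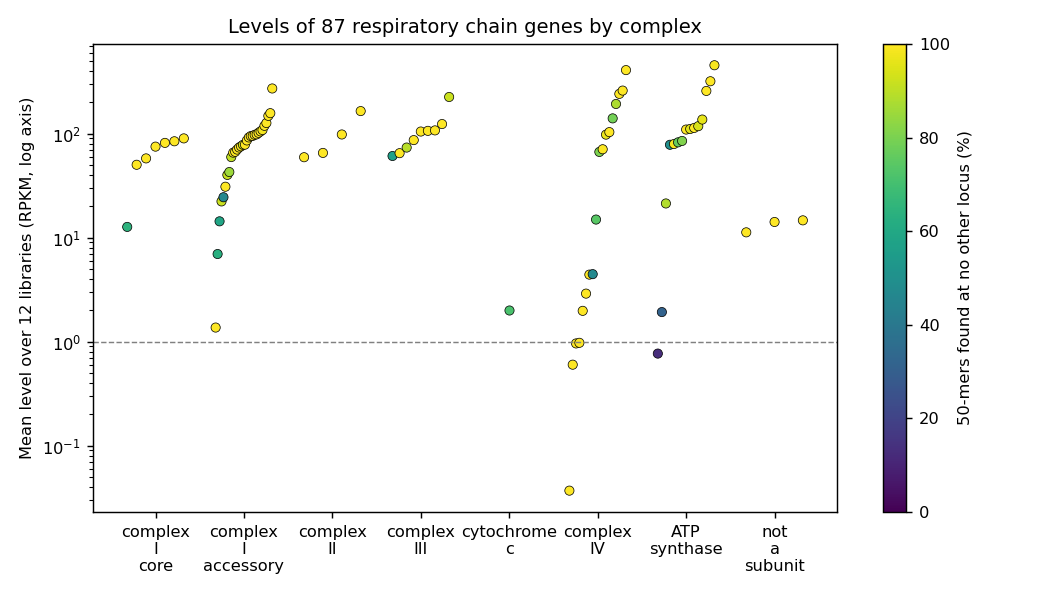
Mean level of each of the 87 members over 12 libraries in RPKM on a log axis, by complex, with points coloured by the percentage of 50-base windows found at no other locus and a dashed line at the filter of 1 RPKM. Atp5b at 455 RPKM is the highest point, and several points under 10 RPKM, such as Cycs and Atp5l, have a low percentage.

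Where a subunit has tissue-specific forms, one form carried most of the RNA, with levels per length in RPKM. Of complex IV subunit 4, Cox4i1 had a median of 416 RPKM in miR and 418 in PBS, while Cox4i2, a form known from lung, had 0.892 and 1.07. Cox6a1, the general form of subunit 6A, was at 191 RPKM in miR and 193 in PBS, and the heart and muscle form Cox6a2 at 1.81 and 1.49. The general form Cox7a2 was at 107 and 101, and the heart and muscle form Cox7a1 at 2.80 and 2.65. The paralog Cox7a2l was nearer to Cox7a2, at 67.0 RPKM in miR and 66.6 in PBS. Cox8a was at 248 and 242, while the muscle form Cox8b was listed at 0 in 8 of 12 libraries and reached 0.167 RPKM in PBS 12. The general forms of subunits 4, 6A, 7A and 8 were above the other forms in every library. Cox6b1 had a mean of 260 RPKM over the 12 libraries against 4.41 for Cox6b2, a form known from testis. Of the 3 genes for the membrane ring subunit c of ATP synthase, Atp5g3 had a mean of 258 RPKM, Atp5g1 21.3 and Atp5g2 0.766, but only 12.6% of Atp5g2 windows were unique.

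In no member did the miR and PBS groups differ by limma at a Benjamini-Hochberg adjusted p below 0.05. The same held for all tested genes (0.0% called). The smallest adjusted p of a member was 0.216, for Ndufs1. At an unadjusted p under 0.05, 5 of 82 members were higher in miR, where 9.12% of all tested genes were, and 0 were lower, where 11.1% of all tested genes were. The 5 members were 6.10% of 82. The gap to the 9.12% of all tested genes was not tested, and the count of members depended on single libraries, as given below. Of the 82 members, 65 had a higher mean log2 level in miR and 17 a lower one, with a median difference of 0.06 on the log2(RPKM + 0.5) scale against 0.01 over all tested genes. Leaving out single libraries moved the 5 higher members to 8 without PBS 7 (13.5% of all tested genes), 10 without PBS 12 (5.36%) and 2 without miR 3 (10.9%). It moved them to 1 without miR 2 (6.19% of all tested genes), miR 5 (5.49%), PBS 8 (6.31%) or PBS 10 (5.09%), and to 0 without miR 6 (6.72%) or PBS 9 (6.09%). Marker lists also moved between the groups. At an unadjusted p under 0.05, 5 of 10 astrocyte markers were higher in miR (10 of 10 in mean, sums of 1094 to 1238 RPKM in miR and 905 to 1154 in PBS). Of 11 tested endothelial and mural markers, 5 were lower (11 of 11 in mean, sums of 47.2 to 59.97 RPKM in miR and 51.7 to 66.1 in PBS). All 7 RNAs of the list called nuclear-retained (Meg3, Miat, Snhg11, Malat1, Neat1, Leng8 and Snrnp70) were lower, with a median difference of -1.17. Retention itself was not measured. The part of these lists in the members' difference was not tested beyond a covariate for the nuclear-retained RNAs. The groups did not overlap in 0 of 82 members, near the share of 0.482% over all tested genes.

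The members with the smallest p values had close group values, given here as the lowest, the median and the highest of the 6 libraries of a group. Ndufs1 (chr1:63190166-63223396, mm9), the largest iron-sulphur subunit of the complex I electron input arm, was at 47.98, 52.7 and 55.6 RPKM in miR and 42.97, 48.2 and 51.4 RPKM in PBS. The highest PBS libraries lay within the miR range, and the log2 difference was 0.12 with an SE of 0.05 (limma adjusted p = 0.216). Uqcrh (chr4:115739570-115747675), the hinge protein of complex III that contacts cytochrome c1, was at 219, 235 and 259 RPKM in miR and 179, 218 and 229 RPKM in PBS. Its log2 difference was 0.15 with an SE of 0.06 (limma adjusted p = 0.22), and the 2 groups again overlapped. Uqcrc2, a core protein of complex III, was at 103, 111 and 116 RPKM in miR and 90.7, 104 and 109 RPKM in PBS, and differed by 0.11 on the log2 scale. Atp5f1, the b subunit of the ATP synthase stalk, was at 81.7, 84.8 and 90.3 RPKM in miR and 71.7, 80.8 and 84.5 RPKM in PBS, and differed by 0.12. Cox7a2 was at 104, 107 and 120.0 RPKM in miR and 79.98, 101 and 109 RPKM in PBS, and differed by 0.15. In each of these 5 genes the lowest value of all was that of PBS 9, and without that library the differences were 0.09 for Ndufs1, 0.10 for Uqcrh, 0.08 for Uqcrc2, and 0.09 for Atp5f1 and for Cox7a2, with an unadjusted p under 0.05 in 0 of 82 members, where 6.09% of all tested genes were higher and 9.82% lower.

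By complex, the median log2 difference was -0.02 over the 7 core genes of complex I, 0.06 over its 30 accessory genes, 0.08 over complex II, 0.05 over complex III, 0.04 over complex IV and 0.08 over ATP synthase. The number of members higher in miR was 3 of 7, 25 of 30, 4 of 4, 7 of 9, 10 of 14 and 13 of 14 in the same order. None of these counts is a count of called genes. Without PBS 9 the counts were 2 of 7, 18 of 30, 3 of 4, 4 of 9, 6 of 14 and 10 of 14, and over all 82 members the median difference was 0.01 with 46 members higher in miR. The summed level of all tested members was 7770 to 8595 RPKM in miR and 6563 to 8302 RPKM in PBS, and PBS 9 gave the lowest sum.

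The extremes of the list were small in size or variable. The largest difference upward was 0.20 for Cox6c, a small complex IV subunit, at 135, 148 and 171 RPKM in miR and 105, 126 and 159.8 RPKM in PBS (SE 0.09, limma adjusted p = 0.249). The largest downward was -0.30 for Ndufa4l2, a paralog of Ndufa4 known as a hypoxia-induced gene, at 0.766, 1.02 and 1.66 RPKM in miR and 1.04, 1.52 and 2.13 RPKM in PBS (SE 0.16, limma adjusted p = 0.296). Both groups of Ndufa4l2 were near the filter of 1 RPKM, and its values overlapped. Complex II had the smallest spread between libraries, with a median SD of 0.06 on the log2 scale over the 11 libraries other than PBS 9, against 0.08 to 0.16 in the other complexes. Sdha was at 164, 169 and 180.4 RPKM in miR and 144, 161 and 171 RPKM in PBS, and its log2 difference of 0.09 had an SE of 0.05 (limma adjusted p = 0.268). Sdhb, its iron-sulphur subunit, differed by 0.08, and the membrane anchors Sdhc and Sdhd by 0.02 and 0.07. Cyc1, the cytochrome c1 of complex III, was at 75.1, 84.3 and 92.5 RPKM in miR and 77.99, 90.7 and 95.9 RPKM in PBS and was one of 2 complex III genes lower in miR, with a log2 difference of -0.07 (SE 0.06, limma adjusted p = 0.49). Cycs differed by 0.10 (SE 0.08), with 1.89, 2.11 and 2.27 RPKM in miR and 1.64, 1.85 and 2.52 RPKM in PBS.

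The 3 genes that encode no subunit had lower levels than most subunits. Cox4nb, also called Emc8, lies head to head with Cox4i1 and encodes a protein of the endoplasmic reticulum; its mean was 14.1 RPKM and its log2 difference 0.08. Atp5s (Dmac2l) had 11.2 RPKM and 0.06, and Atp5sl (Dmac2), which takes part in complex I assembly, had 14.7 RPKM and -0.09. Of the settings with equal library weights, leaving out PBS 7 and PBS 11 together was the one with members past the threshold: Ndufs1 with a log2 difference of 0.17 (adjusted p = 0.0396, limma) and Cox4nb with 0.13 (adjusted p = 0.0433), 2 of 82 members, where 23.4% of all tested genes were called. With limma's library weights 1 member was called, Cox4nb at 0.11 (adjusted p = 0.0479), where 22.8% of all tested genes were called.

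**Figure D2:**
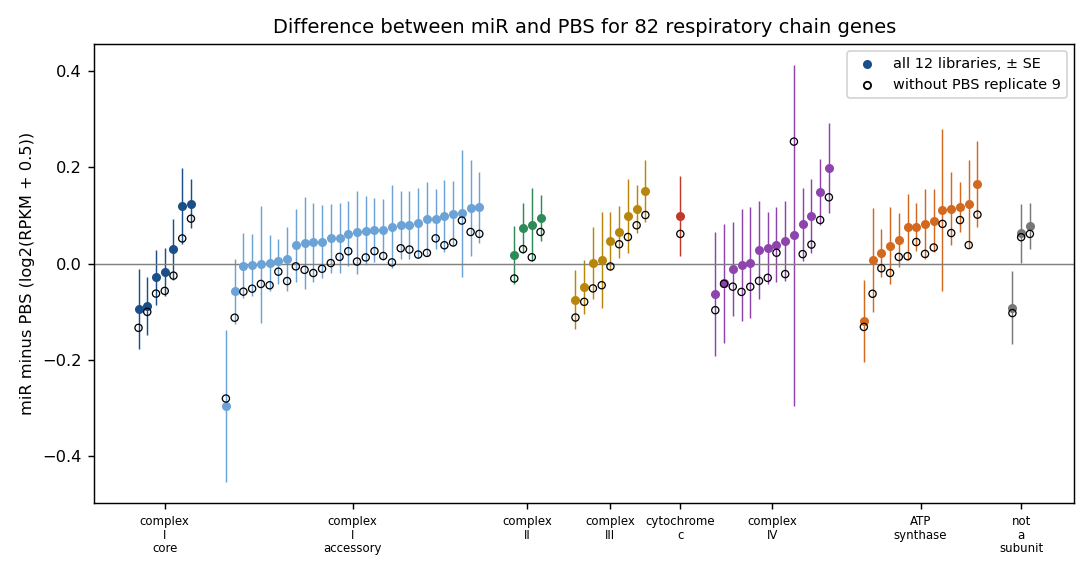
Log2 difference of miR minus PBS for the 82 tested members by complex, ordered by size within each, as filled points with bars of ± 1 SE from the limma fit over 12 libraries; open circles give the value without PBS 9. Points range from -0.30 (Ndufa4l2) to 0.20 (Cox6c), and the median moves from 0.06 to 0.01 without PBS 9.

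One library stood apart within the PBS group. PBS 9, singled out after its values were seen, had the lowest level of the 12 libraries in 63 of 82 members (76.8%), against 20.2% of all tested genes. It lay below the median of the other 11 libraries in 80 of 82 members. The median deviation of the members was -0.28 on the log2 scale, or 17.7% lower, while that of all tested genes was -0.05, or 3.22% lower. In the other 11 libraries the members' median deviation from each gene's median over 12 libraries lay between -0.03 and 0.09. By class, PBS 9 was lowest in 4 of 7 complex I core genes, 26 of 30 accessory genes, 4 of 4 genes of complex II, 7 of 9 of complex III, the cytochrome c gene, 8 of 14 of complex IV and 12 of 14 of ATP synthase.

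The low values of PBS 9 were seen in members of many levels, but not in all of the scarcest. Atp5j2, the f subunit of ATP synthase, was at 96.8 RPKM in PBS 9 and at 129.8 to 165 in the other 11 libraries, a log2 deviation of -0.52. Cox6c was at 105 against 119 to 171 (log2 deviation -0.50), and Cox4i1 at 315 against 364 to 452. Ndufs4, an accessory complex I subunit whose loss causes Leigh syndrome, was at 23.2 against 29.1 to 34.6. In each of these 4 genes PBS 9 lay below the whole range of the others. Sdhd was at 49.5 RPKM in PBS 9 and 59.3 to 60.2 in the other 5 PBS libraries. Atp5b, the most abundant member, was at 404 against 439.9 to 481 in the other 11, a smaller log2 deviation of -0.17. Cox6a2 and Ndufa4l2 were the 2 members above the median of the others in PBS 9, with log2 deviations of 0.93 and 0.30. Cox8a, Ndufs3 and Atp5sl were within 0.02 of it. Of the tested members with a mean under 5 RPKM, Cycs, Cox7c and Cox6b2 were lowest in PBS 9. Atp5l, Cox6a2, Ndufa4l2 and Cox7a1 were lowest in another library.

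**Figure D3:**
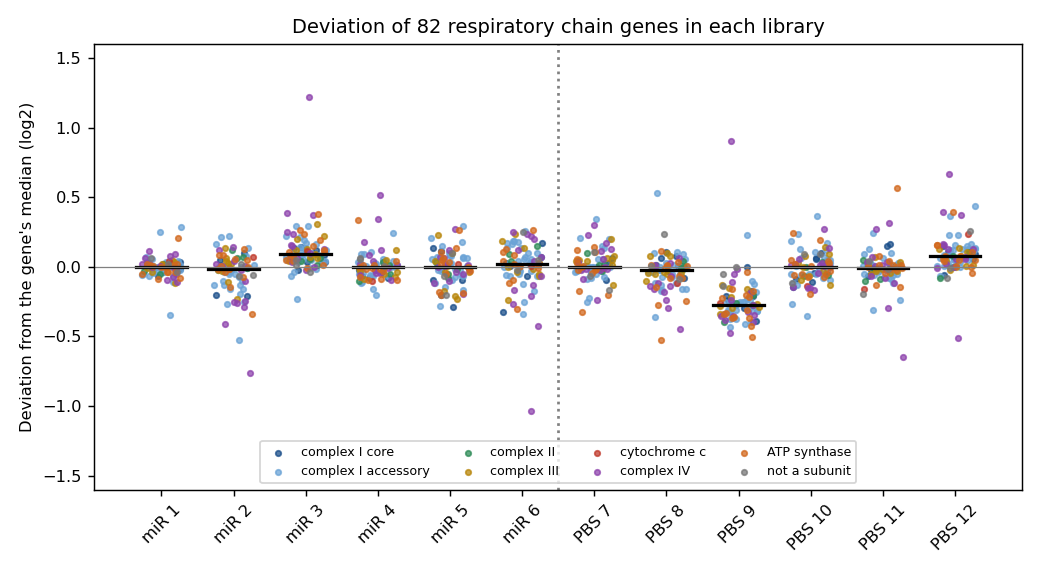
Deviation of each of the 82 tested members from its median over 12 libraries (log2 scale), by library, with points coloured by complex and black bars at the median of each library. The bar of PBS 9 lies at -0.27, while those of the other libraries lie between -0.03 and 0.09.

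**Figure D4:**
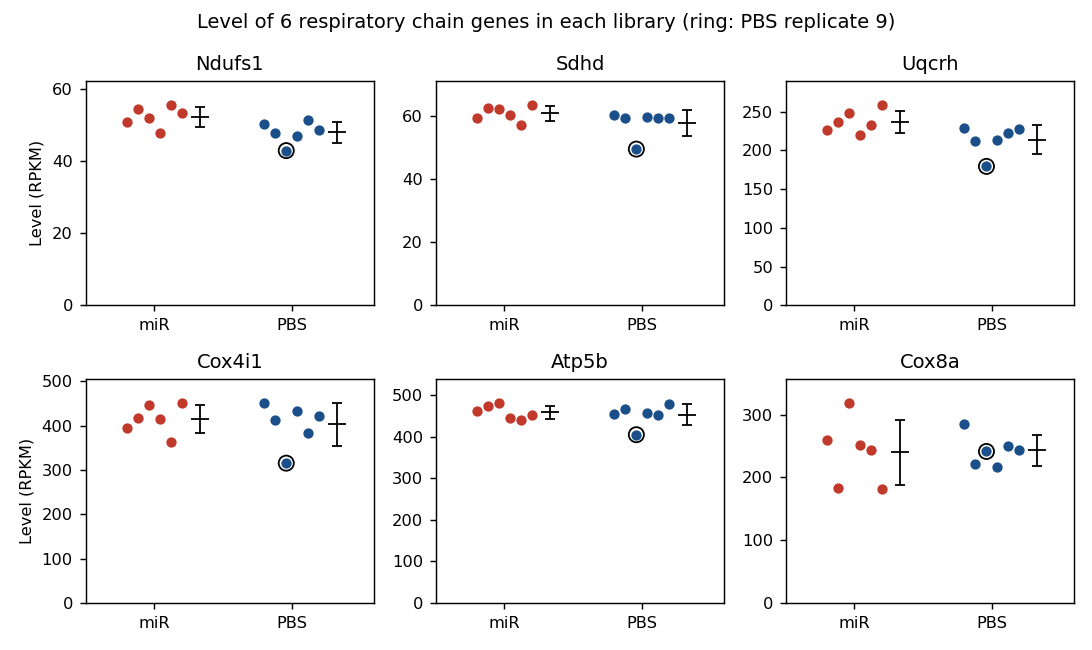
Level in RPKM of one or 2 genes of each complex in the 6 miR and 6 PBS libraries, with a ring around PBS 9 and bars for the group mean ± SD (n = 6). In Ndufs1, Sdhd, Uqcrh, Cox4i1 and Atp5b the ringed library is the lowest, and in Cox8a it lies within the PBS range.

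Other measures also moved in PBS 9. Its 7 RNAs of the nuclear-retained list (Malat1, Meg3, Leng8, Snrnp70 and others) summed to 909 RPKM. The sums were 201 to 720 RPKM in the other PBS libraries and 188 to 259 RPKM in miR. PBS 8, PBS 10 and PBS 12 were also high in these RNAs, with sums of 528, 579 and 720, and their member medians were -0.03, 0.00 and 0.07. The summed level of oligodendrocyte markers was 397 RPKM in PBS 9, and was as low in PBS 11 (399), whose members had a median of -0.01; PBS 7 had 1447 and the 6 miR libraries 559 to 917. Astrocyte markers summed to 905 RPKM in PBS 9, against 963 to 1154 in the other PBS libraries and 1094 to 1238 in miR. Microglia markers summed to 106 RPKM in PBS 9, the lowest of the 12 libraries, and all 10 were below the median of the other libraries. Of the 11 endothelial and mural markers tested, 0 were below it, with a median log2 deviation of 0.18. The part of the nuclear-retained RNAs and of the cell type markers in the low values of the members was not tested. With the nuclear-retained RNAs as a covariate, the median miR minus PBS difference of the members was 0.00 and 42 of 82 were higher in miR. Transcript length moved with the deviation: members under 1000 bases had a median of -0.30 and longer members -0.24, while all tested genes had -0.14 and -0.04 in the same classes. The part of length in the low values was not tested.

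Most other lists of mitochondrial and ribosomal genes were lower in PBS 9 as well. Of all tested genes, 20.2% were lowest in PBS 9. PBS 9 was the lowest library in 13 of 16 citric acid cycle genes, with a median log2 deviation of -0.20, and in 11 of 20 genes of mitochondrial carriers and import, with -0.16. It was lowest in 41 of 75 mitochondrial ribosomal protein genes (-0.18) and in 45 of 81 cytosolic ribosomal protein genes (-0.31). Of 28 tested assembly factors of the respiratory complexes (44 listed), 9 were lowest there (32.1%, median -0.11). Of 16 tested regulators (19 listed) such as Nrf1, Ppargc1a and Tfam, 1 was (6.25%, median -0.04). The cytosolic ribosomal protein genes had a median at least as low as that of the respiratory chain genes, and the regulators a median near that of all tested genes. Between miR and PBS, 0 genes passed the adjusted threshold (limma) in any of these lists. At an unadjusted p under 0.05 (limma), 9.12% of all tested genes were higher in miR and 11.1% lower. The citric acid cycle had 4 of 16 higher and 0 lower, and carriers and import 4 of 20 higher and 2 lower. Of 75 mitochondrial ribosomal protein genes 4 were higher and 1 lower, and of 81 cytosolic ones 2 were higher and 3 lower. Of 28 assembly factors 1 was higher and 1 lower, and of 16 regulators 0 were higher and 1 lower. Pdha1, a subunit of the pyruvate dehydrogenase complex that feeds the cycle, was at 75.03 ± 4.06 RPKM in miR and 65.7 ± 4.14 in PBS (SD, n = 6 each; limma adjusted p = 0.174). Ppargc1a, the coactivator known for raising respiratory gene expression, differed by 0.19 on the log2 scale (unadjusted p = 0.154, limma).

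Levels of the members varied together across libraries. Over the 3321 pairs of tested members, the median Pearson correlation across the 12 libraries was 0.49, and 48.4% of pairs were above 0.5. Over all tested genes the median was 0.02, and 14.2% of pairs were above 0.5. Genes of the same complex had a median of 0.51 and genes of different complexes 0.47, so the pairs within a complex were little closer than the pairs between complexes. Within the complexes the median was 0.82 for complex II, 0.57 for the accessory genes of complex I, 0.55 for ATP synthase, 0.52 for complex III, 0.35 for the complex I core and 0.34 for complex IV. The members most correlated with the others were Uqcr10 of complex III and Ndufb5 of complex I, each with a median of 0.70. Ndufa4l2 and Cox6a2 had negative medians, -0.25 and -0.23. The correlations describe 12 points, and all genes of a library share its depth and its trend with base composition.

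PBS 9 carried much of this pattern. Without it the median was 0.18 over member pairs (0.01 over all tested genes), with 20.8% of pairs above 0.5 against 15.7%. Leaving out any other single library kept the median between 0.47 and 0.54. Without PBS 9 the same-complex median was 0.20 and the other 0.18, and complex II stood at 0.41. Among the 6 miR libraries, which do not include PBS 9, the median was 0.23, and among the 5 remaining PBS libraries it was 0.22. With the GC trend of every library removed, the median was 0.45 with PBS 9 and 0.21 without it.

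**Figure D5:**
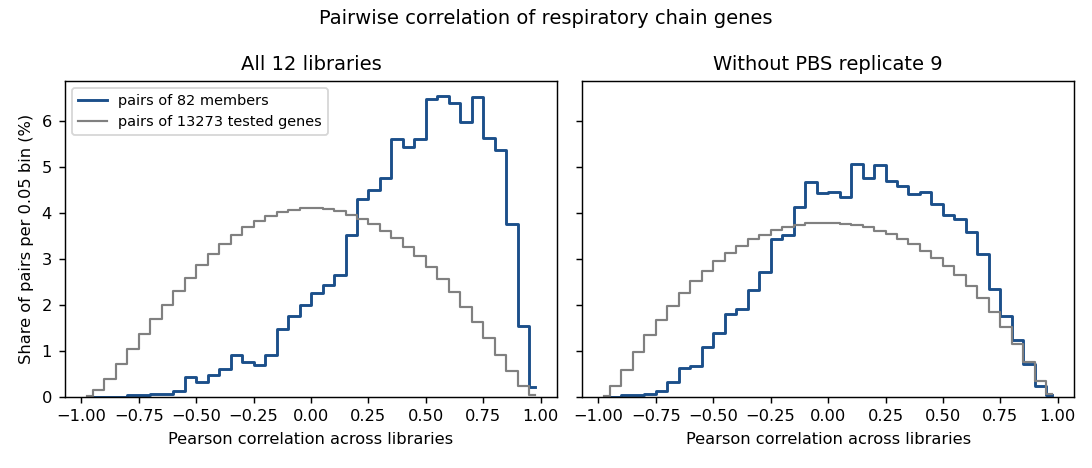
Distribution of the Pearson correlation between pairs of the 82 tested members (blue) and pairs of the 13273 tested genes (grey) as the percentage of pairs per bin of 0.05, over all 12 libraries and without PBS 9. The median of the member pairs is 0.49 in the first panel and 0.18 in the second.

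Within the miR group, the libraries miR 3 and miR 6 differed in which members were high. miR 3 was the highest of 12 libraries in 24 members (29.3%, against 9.56% of all tested genes) and miR 6 in 18 (21.95%, against 9.69%). In the PBS group, PBS 12 was the highest in 17 (20.7%, against 8.75%). Cox8a was at 319 RPKM in miR 3 and 181 in miR 6, the highest and the lowest of all 12. Cox6a1 was at 250.0 and 160.5, and Cox5a at 116 and 86.9, again the highest and the lowest. Ndufa4 and Cox7a2 went the other way, with 313 and 120.0 RPKM in miR 6 against 283 and 109 in miR 3. The median difference of miR 6 minus miR 3 was 0.05 on the log2 scale over the 16 members with GC content under 48%, -0.07 over the 43 from 48% to under 55%, and -0.15 over the 23 at 55% or more. GC content also moved with the difference between the groups: Spearman's rho with the miR minus PBS difference was -0.56 over 82 members and -0.64 over all tested genes with a matched transcript, a correlation across genes, which are not independent replicates. Its part in the differences was not tested beyond the correction, after which 10 of 82 members (12.2%) were higher in miR at an unadjusted p under 0.05, where 3.8% of all tested genes were.

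The members lie on 19 chromosomes, with 9 on chromosome 7 and 3 on the X chromosome (Ndufa1, Ndufb11 and Cox7b). A divergent neighbour with its start within 1000 bases was annotated for 24 of 82 members (29.3%), against 13.3% of tested genes, in mm9. Ndufs1 starts 9 bases from Eef1b2, a translation elongation factor subunit, Sdhd starts 52 bases from Timm8b, a mitochondrial import chaperone, and Cox4i1 starts 178 bases from Cox4nb. Of the 20 members whose neighbour was tested, 17 lay below the median of the other libraries in PBS 9 together with that neighbour, and the neighbours above it were Kin, Vmac and Rbm10. Cox4i1 and Cox4nb are both members and each other's neighbour, so both are counted in the 24, the 20 and the 17. Of all tested genes, taken singly and not as pairs, 58.9% lay below the median of the other libraries. In PBS 9 both genes of the 3 pairs named first were below the median of the other libraries, with log2 deviations of -0.24 and -0.38 for Ndufs1 and Eef1b2, -0.26 and -0.44 for Sdhd and Timm8b, and -0.41 and -0.15 for Cox4i1 and Cox4nb. In 2 of the other pairs, Atp5c1, the gamma subunit of ATP synthase, had -0.36 and its neighbour Kin 0.11, and Ndufb11 had -0.32 and its neighbour Rbm10 0.17. Of the genes with several rows in the table, Ndufv3 had means of 98.6 and 37.5 RPKM for its 2 transcripts and Atp5c1 had 118 and 76.9. The row of highest mean was used, and isoforms that share reads were not separated.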

How the data were processed

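Polyadenylated RNA from PVN punches of 12 mice was sequenced as stranded single-end libraries on 2 lanes, per the labels' protocols and the series design. The authors deposited RPKM values in a single table of 30399 RefSeq transcript rows. Build mm9 and the tool edgeR are named in the submitters' processing notes, with no role stated. Not given in the sources used here are the aligner, the read counter and how reads with several matches were handled. Groups came from the labels. The members, the gene lists and the list of nuclear-retained RNAs were chosen with earlier results of these data known, so no p was computed over any list.

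Each gene was represented by its row of highest mean. All tests ran on log2(RPKM + 0.5), and 13273 genes reached the filter of 1 RPKM on the mean. This is a scale that understates changes of genes of low level. Groups were compared in R 4.3.3 with limma 3.58.1, by a linear model with group as its term and trended empirical Bayes variances. Tests were 2-sided, with a threshold of 0.05 on p adjusted by Benjamini-Hochberg over all tested genes. On simulated data for this comparison with 13273 genes, 80% of changes of 0.5 and 99% of changes of 1 on the log2 scale were recovered, with 5.79% of calls false. The simulated noise was independent between genes and equal across libraries, whereas limma's library weights here ran from 0.41 (PBS 7) to 3.15 (miR 1). The recovered shares therefore do not give the power in these data. No change as small as the members' differences was simulated. Depth was read from the smallest steps of the deposited RPKM values of olfactory receptor genes, and no 2 libraries held identical values.

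Genes named in the text were, per class, the members of highest and lowest mean and the 2 of smallest p, the 10 members of smallest p of all, and the paralog groups, complex II, Cycs and Cyc1. One gene that this rule names is not reported here. Others, such as Atp5j2, Ndufs4 and the genes of the neighbour pairs, were named after their values were seen. For the other lists Pdha1 has the smallest p of its list, and Ppargc1a was named after its value was seen. Transcript length, GC content and unique 50-base windows came from GENCODE M21 transcripts matched by accession (97.97% of tested genes, all 82 tested members), with no coordinate of that annotation used. Promoters came from RefSeq GRCm38.p6, and 17 of 87 members had no match.

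Each choice was varied by itself. The pseudocount was set to 0.1 or 1 RPKM, and the filter was dropped or raised to 5 RPKM. Libraries were scaled to one median, quantile-normalized, weighted, left out, or freed of their GC trend in 20 bins. The variance trend was dropped, or robust variances used. A covariate for the nuclear-retained RNAs was added, a gene's rows were averaged, and the adjusted p was set to 0.1. The 3 correlations without PBS 9 and the overlap of groups with each library left out were added after the data were seen. Whole reads could not be restored for genes with shared exons, so no count model was used.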

Additional observations from a re-analysis of the deposited data

Results flagged for a closer look

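Within each group of 6 libraries, a library was picked out where its gap to the nearest other one was a large part of the group's range. Chance picks out about 1 in 20 groups. PBS 9 was such a low library in 11 of 82 members (13.4%), against 1.34% of all tested genes. These included Sdhd at 49.5 RPKM, Uqcrh at 179, Uqcrc2 at 90.7, Uqcr11 at 60.9 and Cox7a2l at 52.1, Ndufs4 at 23.2, and the ATP synthase genes Atp5b at 404, Atp5a1 at 279, Atp5c1 at 92.8 and Atp5j2 at 96.8. The same library was picked out for the summed level of the complex I core (386 RPKM), of all complex I genes (2390.2), of complex II (324), of complex III (803), of ATP synthase (1665) and of all tested members (6563). Complex IV, with 1342 RPKM in PBS 9, was not picked out in this group.

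In the miR group, miR 3 was the high library for the summed level of complex IV (1852 RPKM), for that of ATP synthase (2121 RPKM) and for Atp5g1 (27.4 RPKM). miR 6 was the high library for Ndufa4 (313 RPKM) and Cox7a2 (120.0 RPKM). Cox8b, the muscle form of subunit 8, was listed at 0 in 5 PBS libraries and at 0.167 RPKM in PBS 12, a level too low to be tested.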

How the results depend on the processing

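No paired analysis was possible because the miR replicates are numbered 1 to 6, the PBS replicates 7 to 12, and no number is shared. Of the results for single named members, none changed sign while called. Ndufs1 and Cox4nb passed the threshold without PBS 7 and PBS 11, and Cox4nb also with library weights. The median miR minus PBS difference of the members stayed above 0 under every setting run, from 0.00 with the covariate for nuclear-retained RNAs to 0.08 without PBS 7 and PBS 11 (without single libraries 0.01 to 0.08). The number of members past the threshold was 1 with library weights and 2 without PBS 7 and PBS 11. The number higher in miR at an unadjusted p under 0.05 (5) was 10 with GC-corrected libraries (3.8% of all tested genes), 3 without the variance trend (8.71%), 0 with the covariate (0.377%), 9 without PBS 7 and PBS 11 (20.2%), 0 without PBS 8, 9, 10 and 12 (0.392%), and 0 to 10 with single libraries left out. The number lower (0) was 3 with library weights (18.6% of all tested genes), 2 without PBS 7 and PBS 11 (17.4%), and 0 to 2 with single libraries left out (2 without miR 3, and 1 without each of miR 1, miR 4 and PBS 11, with 10.5% to 13.2% of all tested genes). The median pairwise correlation (0.49) was 0.31 by Spearman, 0.23 in miR alone, 0.68 in PBS alone, 0.22 in PBS without PBS 9, 0.16 by Spearman without PBS 9, 0.21 with GC-corrected libraries without PBS 9, and 0.18 to 0.54 with single libraries left out. Groups that do not overlap numbered 0 to 1 with single libraries left out, the one being Sdha without PBS 11, where 2.84% of all tested genes did not overlap. The cause was not tested for any of these, beyond the fewer libraries in those left out. Signs of uncalled differences moved easily: 10 of the 34 named members tested changed sign with the GC correction and 6 without PBS 9. Under 100 reads stood behind 6 members, and their values are the least precise.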

Other observations

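Genes of the citric acid cycle, which feed electrons to the respiratory chain, varied together when PBS 9 was included. Over the 16 tested genes of that list the median pairwise correlation across the 12 libraries was 0.48, and it was 0.00 without PBS 9. Over 81 cytosolic ribosomal protein genes it was 0.28 and 0.16, over 75 mitochondrial ribosomal protein genes 0.27 and 0.07, and over 28 assembly factors 0.07 and 0.01. The respiratory chain genes, with 0.49 and 0.18, had a higher median than each of these lists in both cases. Most marker lists had higher medians than the members without PBS 9. These were 0.36 for astrocyte, 0.40 for microglia, 0.41 for PVN, 0.50 for ependymal and choroid plexus, and 0.52 for endothelial and mural markers. The nuclear-retained RNAs had 0.86 and oligodendrocyte markers 0.95, while neuron markers had 0.17. These correlations describe 12 or 11 libraries, and all genes of a library share its depth and its trend with base composition. The differences between lists were not tested.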
